A study of Homo sapiens with 15 samples.

Results

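The human mitochondrial genome carries 37 genes, of which 13 encode proteins, 2 encode ribosomal RNAs (rRNAs) and 22 encode transfer RNAs (tRNAs). All 37 were present among the 60649 human genes of the deposited count table, where they were picked by a symbol that starts with MT-, and the 3 classes are described apart. RNA was sequenced from 15 xenografts of A549, a human lung adenocarcinoma cell line in wide use, grown under the skin of BALB/c nude mice, a strain without mature T cells that keeps its macrophages. No-stress mice (n = 5) were left unrestrained, and the mice of the other groups were held in restraint, a psychological stressor of rodents. Restraint is given as 7 days before transplantation in the stress group (n = 5) and as 12 days after it in the post-stress group (n = 5). It is not stated whether 7 and 12 are lengths of restraint or the days on which it began. The table names its columns Control, Pre and Post, and the Pre columns were taken as the stress group because those mice were restrained before transplantation. All groups share a single cell line and host strain and a graft of 5000000 cells, and the animals' age is not in the labels.

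Mitochondria keep a small circular DNA of their own. Its proteins are core subunits of respiratory complexes I, III and IV and of ATP synthase, while all other subunits of these complexes come from nuclear genes. Both DNA strands are copied into long precursor RNAs, from which the tRNAs that lie between the other genes are cut out, and the rRNAs and tRNAs then serve the ribosomes inside the organelle. A gene's level in such data therefore reflects processing and stability of its RNA as well as transcription.

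Libraries held between 16729091 and 19680449 counts, of which 12877165 to 15892705 lay on human genes. The host's share of counts, those on mouse genes, was 15.6% to 30.2% in the no-stress group, 18.6% to 24.6% in the stress group and 12.4% to 23.0% in the post-stress group. Levels are given as CPM, a gene's counts relative to all human counts of its library after scaling between libraries. Counts on mouse genes thus do not enter the denominator. Of 11 A549 markers, 10 lay at 178 CPM or more in every library, and KRT19 reached at most 0.892 CPM. Of 15 human leukocyte and stroma genes, 6 exceeded 1 CPM in any library and MS4A1 was at 0. The stroma genes COL1A1, DCN and PECAM1 ran from 41.6 to 197, 1.05 to 48.3 and 7.27 to 24.5 CPM over all libraries. CD14, LYZ and HBB reached at most 4.07, 2.79 and 1.32 CPM. The summed level of the 15 genes was 113 to 214 CPM without stress, 119 to 171 CPM with stress and 83.2 to 221 CPM with post-stress. The filter on low counts kept 15435 human genes, among them all 13 coding genes, both rRNA genes and 17 of the 22 tRNA genes. Whether mouse reads were counted on human genes, those of the mitochondrial genome included, was not tested.

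In 4 of 5 tumours of the stress group, protein-coding mitochondrial transcripts took a smaller part of human counts than in every tumour without stress. Without stress the 13 genes together held 3.71, 3.69, 3.38, 3.62 and 3.62% of human counts in replicates 1 to 5, a mean of 3.61% ± 0.131 (SD, n = 5). With stress the values were 2.55, 3.605, 2.58, 2.86 and 2.39%, a mean of 2.79% ± 0.484, and with post-stress 2.77, 3.23, 3.59, 3.33 and 3.62%, a mean of 3.31% ± 0.344. Stress replicate 2 lay within the no-stress range, as post-stress replicates 3 and 5 did. The mouse share of stress replicate 2 was 18.6%, the lowest of its group. The difference of means between stress and no stress was −0.813 percentage points for coding genes. It was −0.0374 points for the rRNA genes (0.0138 without no-stress replicate 4), whose share was 0.607% ± 0.117 in the no-stress group, 0.570% ± 0.0833 with stress and 0.676% ± 0.0683 with post-stress, with overlapping ranges. The 22 tRNA genes together took 0.0403% ± 0.00175 in the no-stress group, 0.0340% ± 0.00227 with stress and 0.0389% ± 0.00620 with post-stress. Their stress libraries (0.0314% to 0.0376%) all lay below their no-stress libraries (0.0379% to 0.0419%), although stress replicate 2 came close, while the post-stress libraries ran from 0.0303% to 0.0452%. No test was made on these sums. A share of human counts is relative and does not give the amount of mitochondrial RNA. In bulk tumour RNA, fewer cells rich in mitochondrial RNA and less of it per cell cannot be told apart.

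**Figure D1:**
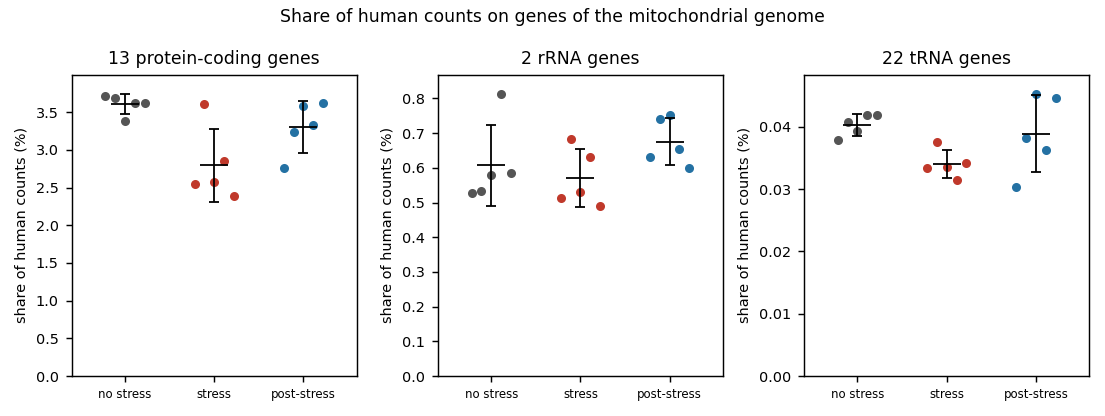
Share of human counts (%, vertical axis from 0) on the coding, rRNA and tRNA genes of the mitochondrial genome in each tumour. Points are replicates 1 to 5 from left to right and bars are mean ± SD (n = 5). In the coding panel 4 stress tumours lie between 2.39% and 2.86% and stress replicate 2 lies at 3.605%, while the no-stress tumours lie between 3.38% and 3.71%.

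Among single coding genes, 5 of 13 fell with stress against no stress and 0 rose (quasi-likelihood test of edgeR, adjusted p under 0.05 by the Benjamini-Hochberg procedure over all tested human genes). They were MT-ND2 and MT-ND3 of complex I, MT-CYB of complex III, MT-CO3 of complex IV and MT-ATP6 of ATP synthase, and their levels were 29.9%, 31.2%, 29.6%, 29.8% and 32.1% lower. Over all tested human genes 10.5% were called in this comparison, 5.22% as lower. The log2 fold changes of the 13 genes ran from −0.56 to −0.19 with a median of −0.38, beside a median of −0.01 over all tested genes. DESeq2 called 6 and limma-voom 5 of the 13, beside 2167 and 1617 of all tested genes. With edgeR the count of coding genes called was 2 without no-stress replicate 1, 3 without stress replicate 1, 3 or 5, and 8 without stress replicate 2. It was 5 with the mouse share as a covariate and 2 without no-stress replicates 1 and 5, the libraries with the highest mouse share. Calls over all human genes were 1613 in the main fit and 661 without no-stress replicate 1. They were 782, 1043 and 1072 without stress replicates 1, 3 and 5 in turn, and 1086 without stress replicate 2. With the mouse share as a covariate they were 1469, and without no-stress replicates 1 and 5 they were 546. MT-ATP6 and MT-ND3 passed in each of the 27 alternatives that were run.

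Complex I, the entry point of electrons from NADH, takes 7 subunits from the mitochondrial genome, and 2 of them fell. MT-ND3, part of the membrane arm, was at 1084, 1035, 921, 1266 and 928 CPM in no-stress replicates 1 to 5. With stress it was at 722, 823, 794, 654 and 607 CPM, and with post-stress at 897, 1087, 1030.3, 865 and 923 CPM. Every stress tumour lay below every no-stress and every post-stress tumour. The log2 fold change against no stress was −0.54 (SE 0.11, adjusted p = 0.00729). MT-ND2, another membrane-arm subunit, was at 2747, 2426, 2175, 2035 and 2227 CPM without stress, 1599, 2083, 1438, 1722 and 1291 CPM with stress and 1573, 2017, 2069, 1850.4 and 2026 CPM with post-stress. Stress replicate 2 overlapped the lowest no-stress tumour, and the other stress tumours lay below all of them. Its log2 fold change with stress was −0.51 (SE 0.13, adjusted p = 0.0175, and 0.0662 without no-stress replicate 1).

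The other 5 complex I genes did not pass the test. MT-ND1 averaged 2351 ± 236 CPM in the no-stress group, 1835 ± 410.2 with stress and 2092 ± 245 with post-stress (log2 fold change −0.36 with stress, adjusted p = 0.1004). For MT-ND5, the longest of the 13, these means were 1454 ± 206, 1056 ± 252 and 1328 ± 266 CPM (−0.46, adjusted p = 0.0736). MT-ND4 averaged 4698 ± 217, 3932 ± 826 and 4520.1 ± 607 CPM (−0.26, adjusted p = 0.222). In all 3 genes stress replicate 2 was the highest stress tumour, at 2478, 1485 and 5358 CPM, and without it all 3 passed the test. MT-ND4L, whose reading frame runs into that of MT-ND4 over 7 shared bases, averaged 902 ± 74.0, 767 ± 130.03 and 891 ± 152 CPM (−0.23, adjusted p = 0.253). MT-ND6 is the only coding gene on the minus strand of the reference and averaged 420.0 ± 87.1, 322 ± 85.5 and 383 ± 83.1 CPM (−0.38, adjusted p = 0.216). Whether the counting used strand is not given in the sources used here, so reads of MT-ND6 and of the opposite precursor RNA cannot be told apart. The same holds for the tRNA genes of the minus strand.

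Complex III passes electrons on to cytochrome c, and MT-CYB, its cytochrome b, is its single mitochondrially encoded subunit. MT-CYB was at 1795, 1850.2, 1698, 1694 and 1823 CPM in the no-stress tumours. It was at 1170.4, 1745, 1131, 1279 and 915 CPM with stress and 1206, 1395, 1621, 1382 and 1582 CPM with post-stress. All post-stress tumours and 4 of 5 stress tumours lay below the lowest no-stress tumour, and stress replicate 2 lay inside the no-stress range. Its log2 fold change with stress was −0.51 (SE 0.14, adjusted p = 0.0254). When no-stress replicate 1, or stress replicate 1, 3 or 5, was left out the call was lost, with adjusted p up to 0.0684.

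Complex IV, cytochrome c oxidase, has its catalytic core built from MT-CO1, MT-CO2 and MT-CO3. MT-CO3 was at 4111, 4012, 3900.0, 4369.9 and 4102 CPM without stress, 2585, 3929, 2491, 2928 and 2449.7 CPM with stress and 3279, 3743, 4787, 3534 and 3924 CPM with post-stress. Stress replicate 2 again stood near the no-stress tumours while the other stress tumours lay far below the lowest of them. The log2 fold change with stress was −0.51 (SE 0.13, adjusted p = 0.0224), and leaving out the same 4 libraries in turn again ended the call (adjusted p up to 0.0676). MT-CO1, which holds the heme and copper centre where oxygen is reduced, averaged 10282 ± 657, 9032 ± 1564 and 10661 ± 855 CPM in the no-stress, stress and post-stress groups. Its log2 fold change with stress, −0.19 (adjusted p = 0.339), was the smallest of the 13. MT-CO2, which takes electrons from cytochrome c, averaged 3657 ± 135, 3085 ± 609 and 3496 ± 497 CPM (−0.25, adjusted p = 0.237).

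ATP synthase takes MT-ATP6, which forms the proton channel with the rotating ring, and the small MT-ATP8 from the mitochondrial genome. MT-ATP6 was at 2320.0, 2481, 2282, 2395 and 2371 CPM without stress. It was at 1519.6, 2122, 1345, 1723 and 1340.2 CPM with stress and 1745, 2055, 2181, 2006 and 2260.0 CPM with post-stress. All restrained tumours of both groups lay below the lowest no-stress tumour. The log2 fold change was −0.56 with stress (SE 0.12, adjusted p = 0.00875) and −0.21 with post-stress (adjusted p = 0.427). MT-ATP6 and MT-ND3 were the only coding genes whose stress and no-stress tumours did not overlap, and 4.70% of all tested genes were separated in this direction. MT-ATP8 averaged 68.5 ± 7.97, 52.9 ± 14.5 and 60.05 ± 12.2 CPM, with overlapping groups (−0.37 with stress, adjusted p = 0.173). The 2 genes are read from a single RNA and overlap in different reading frames. The sense strand of MT-ATP8 (chrM:8366-8572, GRCh38, plus strand, GENCODE 29 transcript) is shown for this overlap, with the 46 bases that also belong to MT-ATP6 in capitals.
MT-ATP8: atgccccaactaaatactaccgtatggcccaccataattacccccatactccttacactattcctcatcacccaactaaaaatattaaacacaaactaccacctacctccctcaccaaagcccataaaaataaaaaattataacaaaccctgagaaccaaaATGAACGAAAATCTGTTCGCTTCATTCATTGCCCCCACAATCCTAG
A read that lies in the capitals belongs to both annotations, and how such reads were counted is not given in the sources used here.

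**Figure D2:**
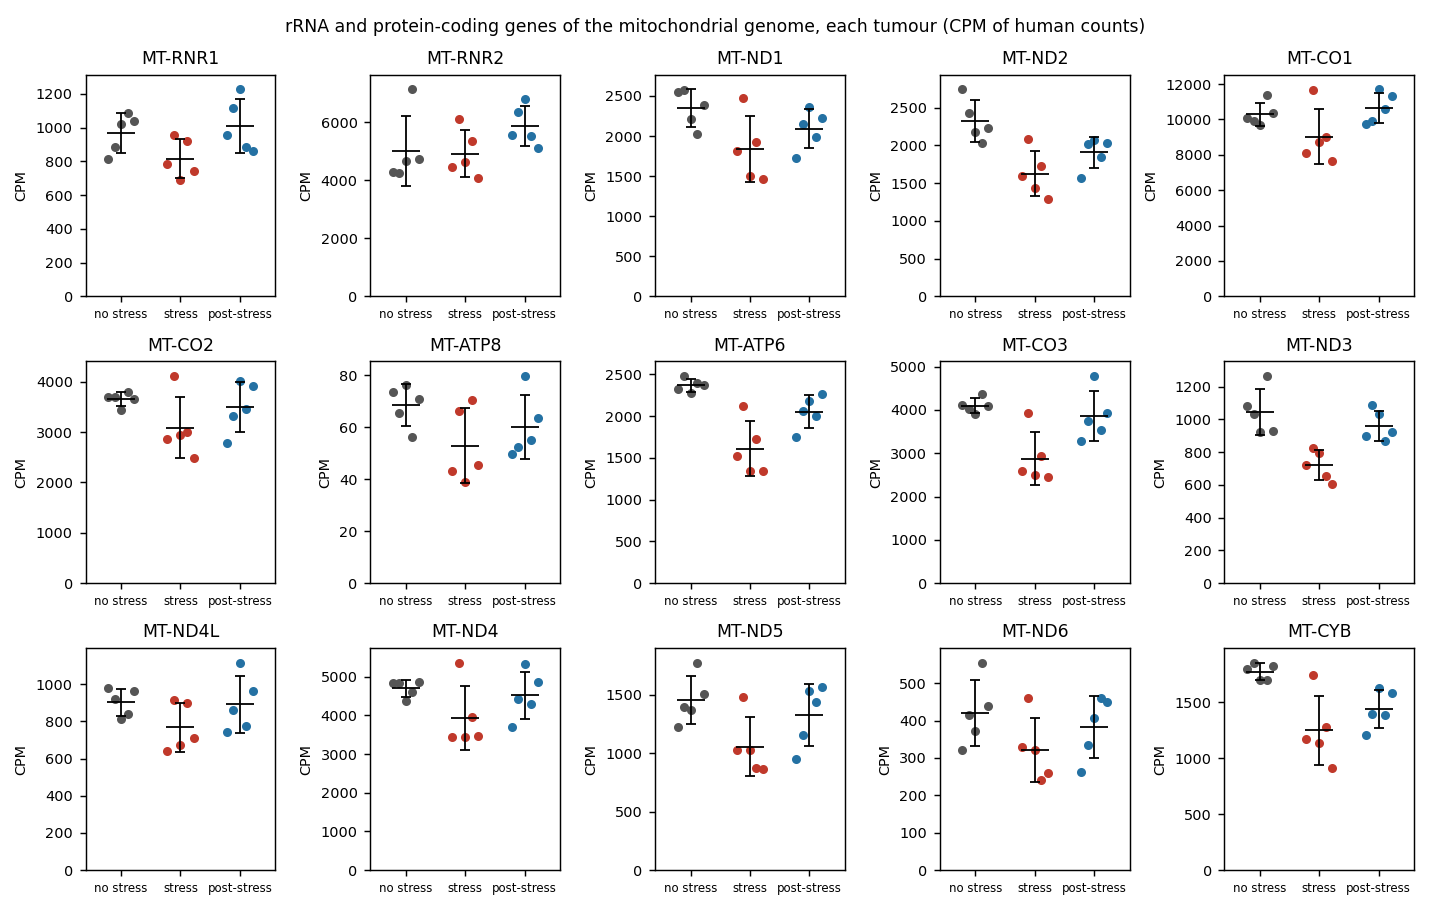
Level of each rRNA and protein-coding gene in CPM of human counts (vertical axes from 0) by group. Points are replicates 1 to 5 from left to right and bars are mean ± SD (n = 5). In the MT-ATP6 and MT-ND3 panels every stress tumour lies below every no-stress tumour, and in 12 of the 13 coding panels stress replicate 2 is the highest point of its group.

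The fold changes of the coding genes were spread unevenly over the tumours. Stress replicate 2 was the highest of its group in 12 of 13 genes and exceeded the lowest no-stress tumour in 11. Stress replicates 3 and 5 lay below every no-stress tumour in 13 of 13 genes, replicate 1 in 12 and replicate 4 in 11. Such counts for single libraries were not made over all tested genes. Post-stress replicate 1 was the lowest of its group in 12 of 13 genes, and its mouse share of 12.4% was the lowest of all libraries. The 13 genes are cut from shared precursors and counted in the same libraries, so they are not separate observations of a tumour.

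Counts per kilobase of gene length differed widely between the coding genes. Over all 15 tumours the mean was 6479.7 CPM per kilobase for MT-CO1, 4989 for MT-CO2 and 4604 for MT-CO3, the 3 highest. MT-ND4, MT-ATP6, MT-ND4L and MT-ND3 followed with 3181, 2951, 2874 and 2628 CPM per kilobase. MT-ND1, MT-ND2 and MT-CYB lay at 2189, 1873 and 1302. The lowest values were 714 for MT-ND6, 706 for MT-ND5 and 292 for MT-ATP8, or 376 when only the 161 bases that MT-ATP8 does not share are used as its length. MT-ATP8 is 207 bases long, shares 46 of them with MT-ATP6 and lies 1 base from MT-TK. How fragments that reach into a neighbour were counted is not given, so its value need not be the level of its RNA. All 3 subunits of complex IV thus stood above every coding gene of complex I, III and ATP synthase in this measure. The order of close neighbours was not the same in each group. MT-ATP6 stood above MT-ND4 and MT-ND4L without stress, at 3480 against 3409 and 3038 CPM per kilobase, and below both with stress, at 2364 against 2854 and 2584. MT-ND6 and MT-ND5 were closer to each other than the spread between tumours. MT-RNR2 and MT-RNR1 lay at 3383 and 976 CPM per kilobase, and whether the library kit removed rRNA is not given in the sources used here.

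**Figure D3:**
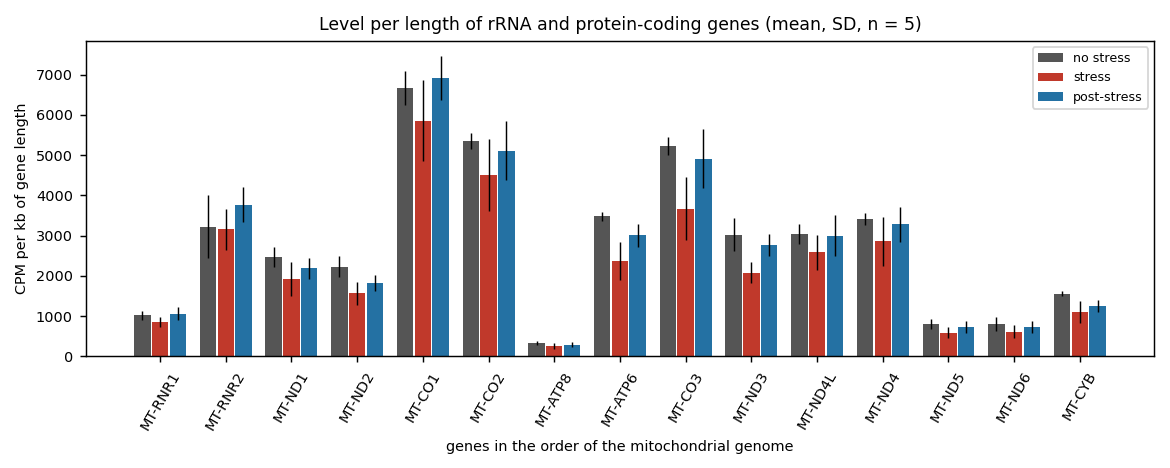
Mean level in CPM per kilobase of gene length (vertical axis from 0) of the rRNA and protein-coding genes in genome order, with SD (n = 5) as error bars. MT-CO1 stands highest in each group, at 6668 (no stress), 5858 (stress) and 6914 (post-stress) CPM per kilobase, and MT-ATP8 lowest. How fragments that MT-ATP8 shares with its neighbours were counted is not given.

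The make-up of the coding counts, each gene's share of a library's coding counts, does not depend on how libraries were scaled, and it differed in level between the groups for several genes. MT-CO1 took 28.999% ± 1.20 of all coding counts in the no-stress group, 32.1% ± 0.986 with stress and 31.8% ± 1.46 with post-stress (SD, n = 5). Its stress tumours (31.3% to 33.7%) all lay above its no-stress tumours (27.9% to 30.9%). The share of MT-CO2 was likewise higher, at 10.6% to 11.4% with stress against 10.2% to 10.4% without. MT-ATP6 gave the opposite order, with 6.69% ± 0.212 in the no-stress group, 5.71% ± 0.329 with stress and 6.10% ± 0.243 with post-stress. MT-CO3 took 11.6% ± 0.242, 10.2% ± 0.366 and 11.4% ± 0.685, and its stress tumours lay below its no-stress tumours while its post-stress tumours overlapped them. For MT-CYB the shares were 5.00% ± 0.231, 4.40% ± 0.310 and 4.27% ± 0.0722, and all post-stress tumours (4.21% to 4.39%) lay below the no-stress tumours (4.61% to 5.19%). Stress replicate 2 lay with its own group in the shares of MT-CO1, MT-CO2, MT-CO3 and MT-ATP6, although its coding total was near that of the no-stress tumours. In the share of MT-CYB it lay inside the no-stress range, at 4.69%. The same held for its shares of MT-ND1, MT-ND2, MT-ND4L, MT-ND5, MT-ND6 and MT-ATP8, while those of MT-ND3 and MT-ND4 lay outside that range. These shares sum to a whole and were not tested.

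Neither rRNA gene was called in any comparison. MT-RNR1, the RNA of the small ribosomal subunit, was at 811, 883, 1023, 1088 and 1038 CPM without stress, 782, 954, 687, 919.8 and 743 CPM with stress and 956, 1115, 1229, 884 and 861 CPM with post-stress. The groups overlapped (log2 fold change −0.25 with stress, adjusted p = 0.216, and 0.06 with post-stress, adjusted p = 0.869). MT-RNR2, the RNA of the large subunit, was at 4281, 4261, 4676, 7149.8 and 4732 CPM without stress, 4444, 6105, 4635, 5344 and 4098 CPM with stress and 5578, 6344, 6794, 5547 and 5117 CPM with post-stress. No-stress replicate 4 stood far above the rest of its group and above all other tumours. The log2 fold change of MT-RNR2 was −0.03 with stress (adjusted p = 0.933) and 0.23 with post-stress (adjusted p = 0.506). At an unadjusted p under 0.05 the rRNA calls were 0 with stress, 0 with post-stress and 1 for stress against post-stress. Of all 15435 tested genes, 4033, 2341 and 1716 had such a p in these comparisons. DESeq2 and limma-voom called 0 rRNA genes in each comparison. Of all mitochondrial counts, the rRNA genes held 12.3% to 18.1% without stress, 15.8% to 18.0% with stress and 14.1% to 18.5% with post-stress.

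The tRNA genes are the shortest members, at 59 to 75 bases, and their counts were few and uneven. Their 81262 counts over all libraries compare with a total of at least 12877165 human counts in each library, and MT-TN, MT-TC and MT-TP held 81.1% of them. The 6 tRNA genes that fell with stress, and then these 3 abundant ones, are shown so that their size, anticodon and place can be seen. Sequences are the GENCODE 29 transcripts (GRCh38), written as DNA 5′ to 3′ in the sense of the gene, with the anticodon in capitals. MT-TV lies at chrM:1602-1670, MT-TI at chrM:4263-4331, MT-TM at chrM:4402-4469, MT-TH at chrM:12138-12206, MT-TS2 at chrM:12207-12265 and MT-TL2 at chrM:12266-12336, all on the plus strand.
MT-TV: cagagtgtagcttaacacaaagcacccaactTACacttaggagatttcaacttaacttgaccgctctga
MT-TI: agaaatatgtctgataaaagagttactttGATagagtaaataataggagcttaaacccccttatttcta
MT-TM: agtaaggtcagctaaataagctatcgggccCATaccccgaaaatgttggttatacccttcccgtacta
MT-TH: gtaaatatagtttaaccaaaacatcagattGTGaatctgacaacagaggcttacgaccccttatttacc
MT-TS2: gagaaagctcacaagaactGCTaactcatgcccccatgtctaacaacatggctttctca
MT-TL2: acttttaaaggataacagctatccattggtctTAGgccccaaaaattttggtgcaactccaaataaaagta
They carry valine, isoleucine, methionine, histidine, serine and leucine in this order. MT-TN (chrM:5657-5729), MT-TC (chrM:5761-5826) and MT-TP (chrM:15956-16023) lie on the minus strand and carry asparagine, cysteine and proline.
MT-TN: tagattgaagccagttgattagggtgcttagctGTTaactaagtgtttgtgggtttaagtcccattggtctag
MT-TC: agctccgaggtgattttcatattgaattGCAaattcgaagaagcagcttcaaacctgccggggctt
MT-TP: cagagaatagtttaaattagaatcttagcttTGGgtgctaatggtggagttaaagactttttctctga
MT-TV sits between MT-RNR1 and MT-RNR2 with no base between, and MT-TH, MT-TS2 and MT-TL2 follow each other without a gap between MT-ND4 and MT-ND5. Genes this short are covered by fragments that can reach into a neighbour, and mature tRNAs and unprocessed precursors were not told apart in the counts.

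With stress 6 of the 17 tested tRNA genes fell and 0 rose, beside the 10.5% of all tested genes called and the 5.22% called as lower. Their log2 fold changes ran from −2.78 to 0.32 with a median of −0.78, and 16 of 17 were below 0. Only 10 of the 17 reached the filter's level (0.689 CPM before scaling between libraries, 10 counts in the median library) in every library. MT-TI, MT-TS2 and MT-TL2 reached it in all 5 no-stress tumours, in none of the stress tumours and in 2, 2 and 3 post-stress tumours, so that they entered mainly through the group where they were high, and the count of 6 of 17 is a description of those that entered. With no filter all 22 were tested and 7 fell, the same 6 and MT-TA. When no-stress replicates 1 and 5 were both left out, 4 fell. DESeq2 called the same 6, and limma-voom these and MT-TR. Calls over all human genes were 1200 of 35033 with no filter and 546 without no-stress replicates 1 and 5. DESeq2 called 2167 and limma-voom 1617 of all tested genes.

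MT-TH, the histidine tRNA, was at 6.67, 3.86, 4.89, 5.87 and 5.13 CPM in the no-stress tumours. It was at 1.73, 3.07, 1.95, 1.96 and 1.76 CPM with stress and 2.28, 2.87, 2.67, 2.98 and 2.21 CPM with post-stress. Every restrained tumour of both groups lay below every no-stress tumour. The log2 fold change was −1.33 with stress (SE 0.21, adjusted p = 0.00193). MT-TS2, the serine tRNA beside it, was at 1.26, 1.73, 0.991, 2.22 and 1.41 CPM without stress, 0.602, 0.697, 0.471, 0.676 and 0.282 CPM with stress and 0.898, 0.616, 0.351, 0.992 and 0.570 CPM with post-stress. The stress tumours lay below all no-stress tumours, and the highest post-stress tumour, at 0.992 CPM, met the lowest no-stress one, at 0.991 CPM (−1.46 with stress, SE 0.34, adjusted p = 0.0130). MT-TL2, the leucine tRNA next in line, was at 0.983, 1.46, 1.18, 1.22 and 1.49 CPM without stress, 0.452, 0.418, 0.135, 0.541 and 0.423 CPM with stress and 0.622, 0.958, 0.210, 0.992 and 0.855 CPM with post-stress. Its stress tumours were again all lower (−1.67, SE 0.38, adjusted p = 0.0127), and its post-stress tumours overlapped the no-stress ones.

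MT-TI, the isoleucine tRNA between MT-ND1 and MT-ND2, had the largest fold change of the tested members. It was at 1.33, 1.80, 1.49, 1.72 and 1.12 CPM without stress, 0.226, 0.349, 0.0673, 0.135 and 0.282 CPM with stress and 0.0691, 0.753, 0.281, 0.992 and 0.570 CPM with post-stress. These levels rest on 109 counts in the 5 no-stress tumours, 15 in the stress tumours and 37 in the post-stress tumours. All restrained tumours lay below all no-stress tumours, and the log2 fold change with stress was −2.78 (SE 0.49, adjusted p = 0.00366). MT-TM, the methionine tRNA that also starts mitochondrial translation, was at 4.64, 2.26, 3.53, 3.15 and 3.05 CPM without stress, 1.58, 2.02, 1.35, 1.22 and 0.212 CPM with stress and 1.24, 1.51, 1.75, 1.76 and 1.14 CPM with post-stress. Its restrained tumours were likewise all lower, with stress replicate 5 far below the rest (−1.38 with stress, SE 0.35, adjusted p = 0.0205, and 0.0662 without no-stress replicate 1). MT-TV, the valine tRNA between the rRNAs, was at 20.5, 17.6, 28.5, 21.3 and 25.8 CPM without stress, 13.7, 17.1, 10.7, 17.0 and 13.9 CPM with stress and 12.5, 20.3, 15.9, 20.6 and 19.2 CPM with post-stress. The highest stress tumour lay just below the lowest no-stress tumour (−0.65, SE 0.16, adjusted p = 0.0180, and 0.0578 without no-stress replicate 3).

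In 7 of the 17 tested tRNA genes all stress tumours lay below all no-stress tumours. MT-TI, MT-TS2 and MT-TL2 are among them, so that this count is again a description of the genes that entered, beside the 4.70% of all tested genes. The 7 were the 6 called genes and MT-TE, the glutamate tRNA, at 1.91 ± 0.3901, 0.993 ± 0.392 and 0.989 ± 0.431 CPM (−0.94 with stress, adjusted p = 0.102). The 6 called genes all lie on the plus strand, which has 11 tested tRNA genes with a median log2 fold change of −0.97 with stress and −0.92 with post-stress. On the minus strand 0 of 6 tested genes were called (2 at an unadjusted p under 0.05, and 0 by DESeq2 and by limma-voom). Of all 15435 tested genes, 4033 had an unadjusted p under 0.05 with stress. The minus-strand median was −0.16 with stress and −0.03 with post-stress, while MT-TA, called with no filter, lies on the minus strand. Since 3 of the 6 called genes entered mainly through the no-stress group, the filter bears on the count and the medians of the plus strand. The difference between the strands was not tested, and the strands also differ in level, since the minus strand holds the 3 most abundant tRNA genes.

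The abundant tRNA genes had smaller estimates. MT-TC was at 126, 153, 143, 163 and 145 CPM without stress, 134, 137, 131, 117 and 138 CPM with stress and 126, 149, 166, 129 and 185 CPM with post-stress. The groups overlapped (−0.15 with stress, adjusted p = 0.360). MT-TN, which is separated from MT-TC by 31 bases, averaged 105 ± 12.1, 98.6 ± 9.16 and 121 ± 37.4 CPM, with post-stress replicate 3 far above all other tumours at 185 CPM (−0.08 with stress, adjusted p = 0.780). For MT-TP, the gene before the control region, the means were 58.2 ± 2.73, 54.0 ± 11.5 and 56.6 ± 8.54 CPM (−0.11 with stress, adjusted p = 0.619). MT-TY, the tyrosine tRNA, averaged 21.0 ± 3.22, 18.8 ± 4.199 and 20.7 ± 6.03 CPM (−0.16, adjusted p = 0.643). MT-TT, the threonine tRNA, was the only tested tRNA gene with a positive estimate with stress, at 2.46 ± 0.947 CPM without and 3.08 ± 1.82 CPM with stress (0.32, adjusted p = 0.708).

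**Figure D4:**
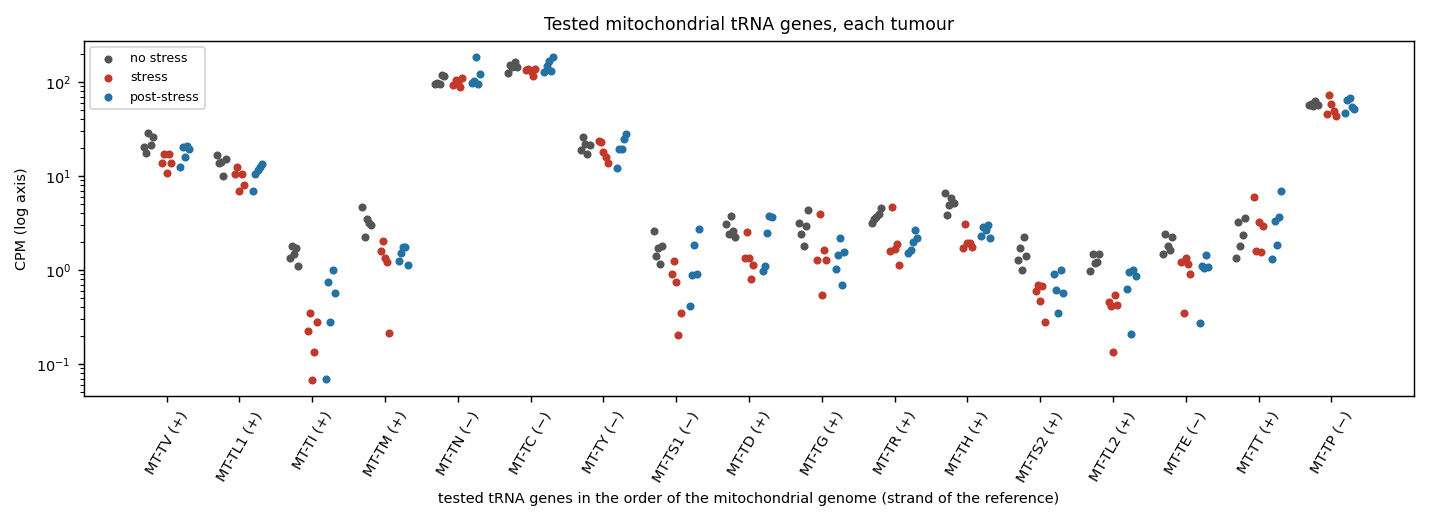
Level of the 17 tested tRNA genes in CPM of human counts (logarithmic vertical axis) in genome order, with the strand of the reference in brackets. Each point is a tumour, coloured by group. MT-TN, MT-TC and MT-TP form the highest clusters with overlapping groups, and for MT-TI, MT-TM and MT-TH all restrained tumours lie below the no-stress tumours.

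The 5 tRNA genes that did not pass the filter, MT-TF, MT-TQ, MT-TW, MT-TA and MT-TK, had 0 to 16 counts in a library. Together they had 126 counts in the no-stress group, 74 in the stress group and 72 in the post-stress group. At this depth single members of this group of 5 have too few counts for a level to be compared, and MT-TA, at 0.388 ± 0.279 CPM without and 0.0411 ± 0.0375 CPM with stress, was called with no filter at an adjusted p of 0.0426.

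With post-stress against no stress 0 of 13 coding genes and 1 of 17 tested tRNA genes were called, where 0.842% of all tested genes were, 0.246% as lower. For the coding genes the log2 fold changes ran from −0.30 to 0.05 with a median of −0.13, 2 had an unadjusted p under 0.05, and DESeq2 and limma-voom called 0. For the tRNA genes they ran from −1.48 to 0.48 with a median of −0.36, and 9 of 17 had an unadjusted p under 0.05. Of all 15435 tested human genes, 2341 had such a p in this comparison. MT-CYB (−0.30, adjusted p = 0.295) and MT-ATP6 were separated from no stress in every tumour, which was so for 1.89% of all tested genes in this direction. MT-TH fell, with a log2 fold change of −1.02 (SE 0.20, adjusted p = 0.0254). This call was lost without no-stress replicate 1 or 3, without post-stress replicate 1 or 2, with the mouse share as a covariate, with the replicate block (adjusted p = 0.0722) and when no-stress replicates 1 and 5 were both left out. Adjusted p reached 0.0909 without single libraries and 0.167 over all alternatives. Besides MT-TH, the post-stress tumours of MT-TI (−1.48, adjusted p = 0.112), MT-TM (−1.16, adjusted p = 0.120), MT-TR (−0.92, adjusted p = 0.162) and MT-TE (−0.95, adjusted p = 0.214) lay below all no-stress tumours. MT-TI, MT-TS2 and MT-TL2 passed the filter mainly through the no-stress group. The separation of MT-TI and the tRNA count at an unadjusted p are thus descriptions of the genes that entered. Both restrained groups were compared with the same 5 no-stress tumours, so that a high or low control moves both sets of fold changes.

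**Figure D5:**
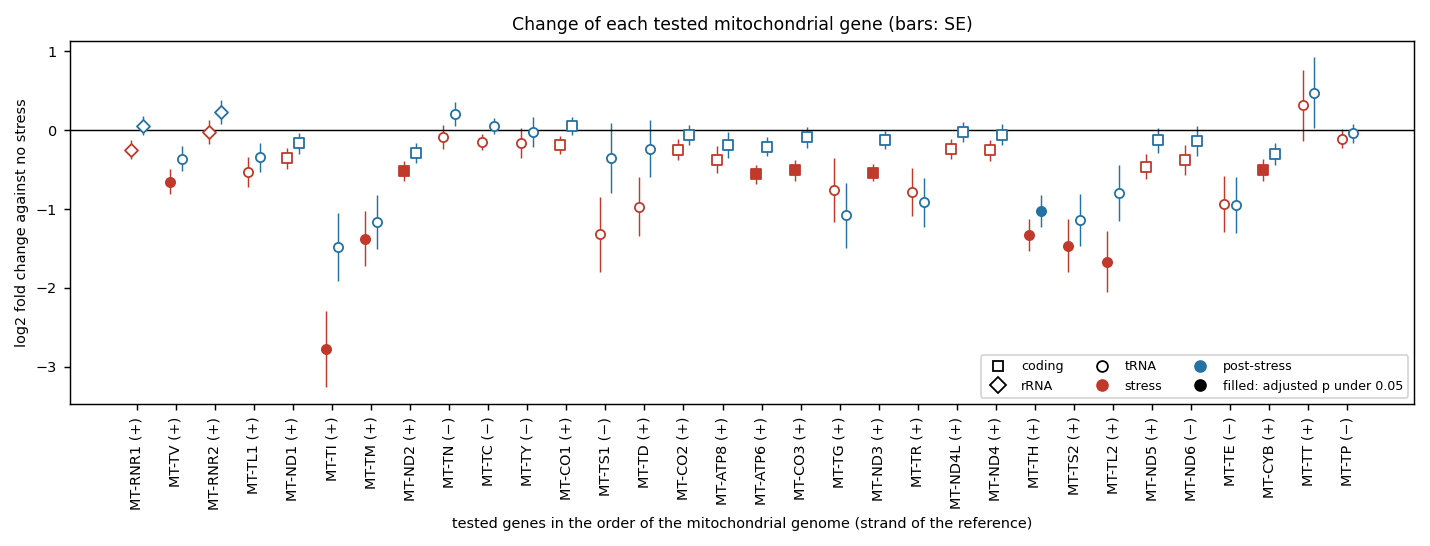
Log2 fold change against no stress (vertical axis) of the 32 tested mitochondrial genes in genome order, with the strand of the reference in brackets. Red marks are stress, blue marks post-stress, squares coding genes, diamonds rRNA genes and circles tRNA genes, bars are SE, and filled marks have an adjusted p under 0.05. The filled marks are 5 coding and 6 tRNA genes with stress and MT-TH with post-stress, all below 0.

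Set against each other, the restrained groups differed in no mitochondrial gene at the adjusted threshold. For stress against post-stress 0 of 13 coding and 0 of 17 tRNA genes were called, where 0.0389% of all tested genes were. All 13 coding estimates were below 0, from −0.42 to −0.18 with a median of −0.23, and 3 had an unadjusted p under 0.05. Such a p was found for 1716 of all 15435 tested genes. MT-ND3 was the coding gene without overlap, at −0.42 (SE 0.11, adjusted p = 0.139), where 0.752% of all tested genes were separated in this direction. DESeq2 called MT-ND3 alone among the coding genes (adjusted p = 0.0190), and limma-voom called 0. Over all tested genes DESeq2 called 203 and limma-voom 7. Among the tRNA genes 2 had an unadjusted p under 0.05, and DESeq2 and limma-voom called 0. A difference in coding transcripts between the restrained groups was therefore not shown by this test.

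Nuclear genes supply the machinery that copies, reads and processes the mitochondrial genome, and of a list of 66 such genes 64 were tested and 7 fell with stress while 0 rose. This is 10.9% of the list, near the 10.5% of all tested genes called in either direction and above the 5.22% called as lower, and the median log2 fold change was −0.11. Of 23 genes of replication and transcription 3 fell. RNASEH1, which removes RNA from RNA-DNA hybrids during replication, was at 83.9, 81.2, 74.6, 69.9 and 66.2 CPM without stress and 45.2, 58.4, 53.7, 55.4 and 42.7 CPM with stress. The groups did not overlap (−0.56, SE 0.10, adjusted p = 0.00394). TWNK, the replicative helicase, averaged 59.1 ± 1.54 and 47.5 ± 4.91 CPM (−0.31, adjusted p = 0.0388). Its call was lost when any 1 no-stress library, stress replicate 1, 2, 3 or 5, or post-stress replicate 4 was left out (adjusted p up to 0.0988). It was also lost with no filter, and without stress replicate 2 and no-stress replicate 4 together. Leaving out no-stress replicates 1 and 5 together ended it as well (adjusted p up to 0.135 over all alternatives). DNA2, a nuclease and helicase, was the third. TFAM, which packages mitochondrial DNA and starts its transcription, averaged 102 ± 11.2 CPM in the no-stress group, 87.6 ± 4.18 with stress and 86.6 ± 6.21 with post-stress (−0.21, adjusted p = 0.0894). POLRMT, the mitochondrial RNA polymerase, averaged 109.8 ± 7.97, 109 ± 16.9 and 118 ± 15.3 CPM (−0.01, adjusted p = 0.980).

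Of 34 tested genes for processing, modification and stability of mitochondrial RNA, 4 fell, which is 11.8%. Of all tested genes 10.5% were called in either direction and 5.22% as lower. DHX30, an RNA helicase of mitochondrial RNA granules, was at 70.6, 70.5, 72.5, 68.5 and 72.9 CPM without stress and 59.9, 57.5, 57.6, 59.9 and 58.1 CPM with stress, with no overlap (−0.28, SE 0.06, adjusted p = 0.00736, and 0.0628 with no filter). FASTKD5, which acts on the ends of coding RNAs that no tRNA borders, averaged 31.6 ± 3.12 and 22.2 ± 2.69 CPM (−0.51, adjusted p = 0.00814). PUS1, a tRNA pseudouridine synthase of nucleus and mitochondria, averaged 47.0 ± 4.25 and 36.5 ± 3.38 CPM (−0.36, adjusted p = 0.0273). Its call was lost without no-stress replicate 1, 2 or 3 or stress replicate 1, 2 or 3 (adjusted p up to 0.0908). It was also lost with the replicate block, and without stress replicate 2 and no-stress replicate 4 together. Leaving out no-stress replicates 1 and 5 together ended it as well (adjusted p up to 0.134 over all alternatives). FASTKD3 was the fourth. LRPPRC, which stabilises mitochondrial messenger RNAs, averaged 309.8 ± 25.3, 279 ± 31.2 and 309 ± 38.4 CPM (−0.15 with stress, adjusted p = 0.342). None of the 7 tested regulators of mitochondrial biogenesis was called with stress (1 at an unadjusted p under 0.05, beside 4033 of all 15435 tested genes). PPARGC1A and MRM2 were not tested, with 116 and 84 counts over all libraries. With post-stress and for stress against post-stress 0 of 64 were called, with 14 and 4 at an unadjusted p under 0.05, 5 and 1 by DESeq2, and 0 by limma-voom. Of all 15435 tested genes, 2341 and 1716 had an unadjusted p under 0.05 in these comparisons. DESeq2 called 504 and 203 of all tested genes, and limma-voom 126 and 7. Over the whole list, the number that fell with stress was 3 without no-stress replicate 1 or 3 or stress replicate 1. It was 4 without no-stress replicate 2, stress replicate 2, 3 or 5 or post-stress replicate 4, and at most 9 without any other single library. Calls over all human genes numbered 1613 in the main fit. Without no-stress replicates 1 and 3 and stress replicate 1 in turn they were 661, 864 and 782. Without no-stress replicate 2 they were 1424, and without stress replicates 2, 3 and 5 in turn 1086, 1043 and 1072. Without post-stress replicate 4 they were 1453, and 1358 to 1834 without any other single library.

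Copies of mitochondrial genes in the nuclear genome can take reads from the genes described here. Among 404 such pseudogenes that the deposited data list, 97 had any count, and their 51303 counts equal 0.613% of the counts on mitochondrial genes. MTND2P28, MTATP6P1 and MTCO1P12 held 96.7% of these. MTND2P28 averaged 138 ± 16.5 CPM without stress and 102 ± 16.2 CPM with stress (−0.44, adjusted p = 0.0254), MTATP6P1 105 ± 6.75 and 69.1 ± 11.9 CPM (−0.61, adjusted p = 0.00883) and MTCO1P12 23.5 ± 0.767 and 20.3 ± 2.07 CPM (−0.21, adjusted p = 0.138). These 3 copies thus had the same order of fold changes as MT-ND2, MT-ATP6 and MT-CO1, and levels of near-identical copies are uncertain, since reads that match both places cannot be told apart.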

How the data were processed

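RNA-seq counts of 15 tumours (5 per group) were analysed. The authors deposited raw counts per gene in 1 table of 60649 human and 56941 mouse genes, and per the submitters' processing notes the reads were trimmed with Trimmomatic (0.39), aligned with HISAT2 (2.2.1) to hg38 and mm10 and counted with featureCounts (2.0.6). DESeq2 and edgeR appear in those notes as well, and no output of theirs was used. Neither the annotation release nor the strandedness is given in the sources used here. Each column was mapped to a group and replicate by its name.

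Human counts were filtered with filterByExpr (10 counts in the median library, in 5 libraries), which kept 99.8% of them, and scaled with TMM over human genes. All 15 libraries entered 1 robust quasi-likelihood model of edgeR 4.0.16 (R 4.3.3, limma 3.58.1), with a biological coefficient of variation of 0.187. A gene was called where its p, adjusted over 15435 tested human genes by the Benjamini-Hochberg procedure, was under 0.05. The SE is the size of the log2 fold change divided by the square root of F. The fit was tested on simulated counts drawn independently for each gene, so that test does not cover genes that vary together. Its outcome is not used in the results.

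Members and lists were chosen with earlier results of these data known. Named are all coding and rRNA genes, tRNA genes called in any comparison or among the 4 with most counts, TFAM, POLRMT and LRPPRC, up to 5 called nuclear genes per comparison by smallest p, and the 3 pseudogenes with most counts. MT-TE, MT-TR, MT-TT, MT-TA and the other untested tRNA genes, DNA2, FASTKD3, PPARGC1A and MRM2 were named after their values were seen. Human symbols, coordinates and transcripts came from the reference tables and GENCODE 29 (GRCh38). Mouse mitochondrial genes were not analysed here, since no mouse symbols were at hand.

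Alternatives were DESeq2 size factors, no TMM, scaling on nuclear genes, no filter, a filter at 1 CPM in 5 libraries, limma-voom, the Wald test of DESeq2 1.42.0, fits of the 2 compared groups alone, the mouse share as a covariate, a replicate block, and fits with a single library left out. Added once the data had been seen were fits that leave out stress replicate 2 with no-stress replicate 4, or no-stress replicate 1 with 5.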

Additional observations from a re-analysis of the deposited data

Results flagged for a closer look

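A library was marked where the gap between the highest or lowest of 5 tumours and its nearest neighbour exceeded 0.71 of the group's range (Dixon's criterion). Chance gives this in about 1 of 20 groups, and it was met in 8 of 111 groups examined. Stress replicate 2 stood above its group in MT-ND4 (5358 CPM, next 3947), MT-ND5 (1485 CPM, next 1027) and MT-TH (3.07 CPM, next 1.96). No-stress replicate 4 stood above its group in MT-RNR2 (7150 CPM with the next at 4732) and, with it, in the rRNA share of human counts (0.812%, next 0.586%). No-stress replicate 3 was the low library of its group in the coding share (3.38%, next 3.62%). In the nuclear list, post-stress replicate 2 stood out in LRPPRC (377 CPM, next 299) and post-stress replicate 4 in FASTKD5 (30.0 CPM, next 24.2). The cause of these values was not tested.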

How the results depend on the processing

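Of 17 called results for single genes, 8 kept their call in all 27 alternatives, and 0 changed direction. The 8 were MT-ATP6, MT-ND3, MT-TI, MT-TH, MT-TS2, MT-TL2, RNASEH1 and FASTKD5, all with stress. MT-TI, MT-TS2 and MT-TL2 passed the filter mainly through the no-stress group, so their place among the 8 is a description of genes that entered. Among 99 results for named genes, 13 without a call changed sign in some alternative. With stress, the number of coding genes called was 2 to 8 without single libraries and 2 without no-stress replicates 1 and 5. The number of nuclear genes called was 11 with DESeq2's Wald test (10 lower, 1 higher), 3 with no filter, 4 with the replicate block, 3 and 3 in the 2 fits added after the data were seen, and 3 to 9 without single libraries. With post-stress, the number of tRNA genes called was 2 with DESeq2, 0 with the replicate block, 0 with the mouse share as a covariate, 0 without no-stress replicates 1 and 5, and 0 to 2 without single libraries, and 5 nuclear genes were called with DESeq2. For stress against post-stress, 1 coding gene (MT-ND3) was called with DESeq2 and 1 with no filter, and 1 nuclear gene (PNPT1, higher) with DESeq2 and 0 to 1 without single libraries. The difference in rRNA share between stress and no stress ran from −0.0656 to 0.0138 percentage points without single libraries, and that in tRNA share between post-stress and no stress from −0.00297 to 0.000758. The cause of these shifts was not tested.

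Over all human genes, the calls with stress were 807 higher and 806 lower, and with no TMM 662 higher and 987 lower, with post-stress 92 and 38 against 59 and 62. Without TMM the medians of all genes were −0.04 and −0.06. Calls over all genes ranged from 546 to 2167 with stress, 32 to 504 with post-stress and 0 to 203 for stress against post-stress. Equal replicate numbers did not pair the tumours (correlations of same-numbered deviations −0.191 to 0.124, over 0.1 in 1 of 15 pairs, and 1 library closest to its own number). The replicate block gave 990, 57 and 0 calls over all genes, and left 5 coding and 6 tRNA genes called with stress. Depth limits the tRNA genes most, since 7 of the 17 tested fell short of the filter's level in some library.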
